A study of Rattus norvegicus with 11 samples.

Results

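The feeder arm of this rat experiment was followed from day 7 of conversion to the established state. It consists of 3 arrays out of 11 in the series, 1 each at days 7, 17 and 32. They were chosen by culture and day alone, without the use of any measured value. The change described below is the mean of days 17 and 32, called the established state here, minus day 7, on the log2 scale, and it is called the late change. All arrays measured total RNA of cells derived from the rat embryonic stem cell line DAc2 on the Affymetrix Rat Gene 1.0 ST platform.

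The cells of the feeder arm came from embryonic stem cells kept on a layer of mouse embryonic fibroblasts in N2B27 medium with 3 µM of the GSK3 inhibitor CHIR99021 and 0.5 µM of the MEK inhibitor PD0325901. The feeder-free cells had been kept on laminin in the same base medium with CHIR99021 at 3 µM, PD0325901 at 2 µM and human BMP4 at 5 ng/mL. In both arms conversion to hypoblast stem cells, which the labels call cHypoSCs, took place in a maintenance medium for rat multipotent adult progenitor cells with fetal bovine serum at 2% and the growth factors PDGF, EGF and LIF. The labels do not say whether fibroblasts were supplied during conversion. Below, the words on feeder cells and without feeder cells therefore name the starting culture only. The starting cultures also differed in PD0325901, BMP4 and the laminin coating, and the parts of these differences cannot be told apart. On feeder cells each of days 0, 7, 17 and 32 was measured on 1 array. Without them day 0 was measured on 1 array and the later days on 2 each. Day and culture history are the labelled differences between groups, and the cultures were made from a single cell line.

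The hypoblast, or primitive endoderm, is the cell layer that forms beside the pluripotent epiblast in the blastocyst and gives rise to the visceral and parietal endoderm of the yolk sac. In the mouse, Nanog and Sox2 sustain the epiblast, whereas Gata6, Gata4 and Sox17 drive the primitive endoderm, which depends on the PDGF receptor Pdgfra. Its derivatives lay down a thick basement membrane and take up maternal proteins by endocytosis.

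Expression values are log2 values with a shared median of 8.97 on every array. They compare a gene between arrays and do not rank different genes by abundance. Genes of olfactory and vomeronasal receptors, which are not thought to be active in such cells, give a guide to the dim end. The median of their mean values was 6.36 and their 95th percentile was 8.06, and values under 8.06 are called near background below. Where a gene ends or starts near background, its printed change is the difference of the deposited values, and the change of its RNA is only bounded. The feeder arrays of days 17 and 32 were alike, with a correlation of 0.995 across 14506 genes. The feeder day 7 array correlated at 0.980 with feeder day 0, at 0.946 with feeder day 17 and at 0.945 with feeder day 32. Feeder-free pairs of the same day correlated at 0.997 to 0.998. Genes are not independent replicates, so these correlations are descriptions.

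P values come from limma fitted to all 11 arrays and 14506 genes, adjusted by the Benjamini-Hochberg method, and a gene is called under 0.05. The spread in this fit comes from the 3 feeder-free pairs. The single feeder arrays are assumed to vary like them, and every late change rests on 1 day 7 array. In bulk RNA, fewer cells of a type and less RNA per cell cannot be told apart.

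The late change was broad. Of 14506 genes, 5181 were called, a share of 35.7%. Of these, 3134 were higher in the established state (21.6%) and 2047 were lower (14.1%). A change of at least 1 was found in 940 rises (6.48%) and 722 falls (4.98%). The split between rises and falls depends on the scaling: after quantile normalization 2790 genes rose and 2926 fell, and after centring on the median gene 2696 rose and 2578 fell. The median over all genes was 0.08. For 7804 genes (53.8%) both established arrays lay above day 7, for 4453 (30.7%) both lay below it, and for 2249 day 7 lay between them.

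Naive pluripotency genes were, by their median, still near their starting level at day 7 on feeder cells, and most of them fell afterwards. The shares of all genes that rose (21.6%) and fell (14.1%) stand behind this and each later count of list members, and counts of 3 or fewer members often moved by 1 or 2 under another scaling or with 1 array left out. Of 17 measured genes of naive pluripotency, 11 fell, 3 rose and 3 did not pass the test. The median late change was -1.79, while the same genes had a median of -0.11 from day 0 to day 7 in the same arm. Nanog, a homeobox factor of the epiblast, had 7.82 and 7.13 at days 17 and 32, against 13.29 at day 7, and 13.35 at day 0. Both established values were near background, and day 7 stood beside day 0. Its change was -5.82 on the log2 scale (adjusted p = 5.63e-11), and set against the guide of 8.06 it was at least 37.5-fold lower in the established state. By day 7, 1.0% of the whole change of Nanog from day 0 to the established state had occurred on feeder cells, against 57.0% without feeder cells.

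Sox2, the partner of Oct4 in the pluripotency network, had 9.82 and 9.77 in the established state, against 12.73 at day 7. It fell by 2.93 (95% interval -3.20 to -2.66, adjusted p = 4.23e-10) and remained above the background level. Klf2, a Krüppel-like factor of the naive state, had 10.17 and 10.08 against 12.94 at day 7, a fall of 2.81. Gdf3, a TGF-beta family ligand of pluripotent cells, had 7.12 and 7.70 against 11.65, and with a fall of 4.24 it too reached the range near background. For each of these 4 genes the established arrays lay far below day 7, and much closer to each other than to day 7.

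Not all genes of the naive list behaved in this way. Pou5f1, which encodes Oct4, had 12.98 and 13.39 in the established state, against 13.94 at day 7. Its fall was 0.75 (adjusted p = 0.000335), and the call was lost when days 17 and 32 were treated as one group. The gene thus kept a value far above background on every feeder array. The 3 genes that rose were Klf4, Klf5 and Lin28a. Klf5, another Krüppel-like factor, had 14.52 and 14.74 against 13.39, a rise of 1.25. The RNA-binding protein Lin28a rose by 1.04 and Klf4 by 0.78. The day 7 value of Klf5 was below its day 0 value of 14.41, and the rise brought it back to that level. Lin28a at day 7, 10.74, was likewise below day 0, at 11.98.

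Genes of the primed epiblast fell as well, 8 of 10 being called lower and 1 higher, with a median of -1.06. The same genes had a median of -0.03 from day 0 to day 7 in the same arm. Nodal and Lef1 already stood at 12.95 and 13.10 at day 0, and whether the day 7 cells were in a primed state was not tested. The leading falls were in the Nodal pathway. Lefty1, a secreted inhibitor of Nodal, had 9.15 and 8.78 in the established state, against 14.57 at day 7, which was its highest value in the arm. It fell by 5.60 (adjusted p = 3.97e-11). Lefty2, a second such inhibitor, had 7.78 and 7.53 against 11.85 at day 7, and 8.45 at day 0, so that it was high on the day 7 array alone. The ligand Nodal fell by 2.24, and Lef1, a DNA-binding partner of beta-catenin, by 3.70. Of 14 genes with roles in the germ line, several of which pluripotent cells also express, 11 fell and 0 rose, with a median of -2.00. Tex15, a meiotic gene, was among them, with 8.64 and 8.55 against 13.35 at day 7.

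**Figure D1:**
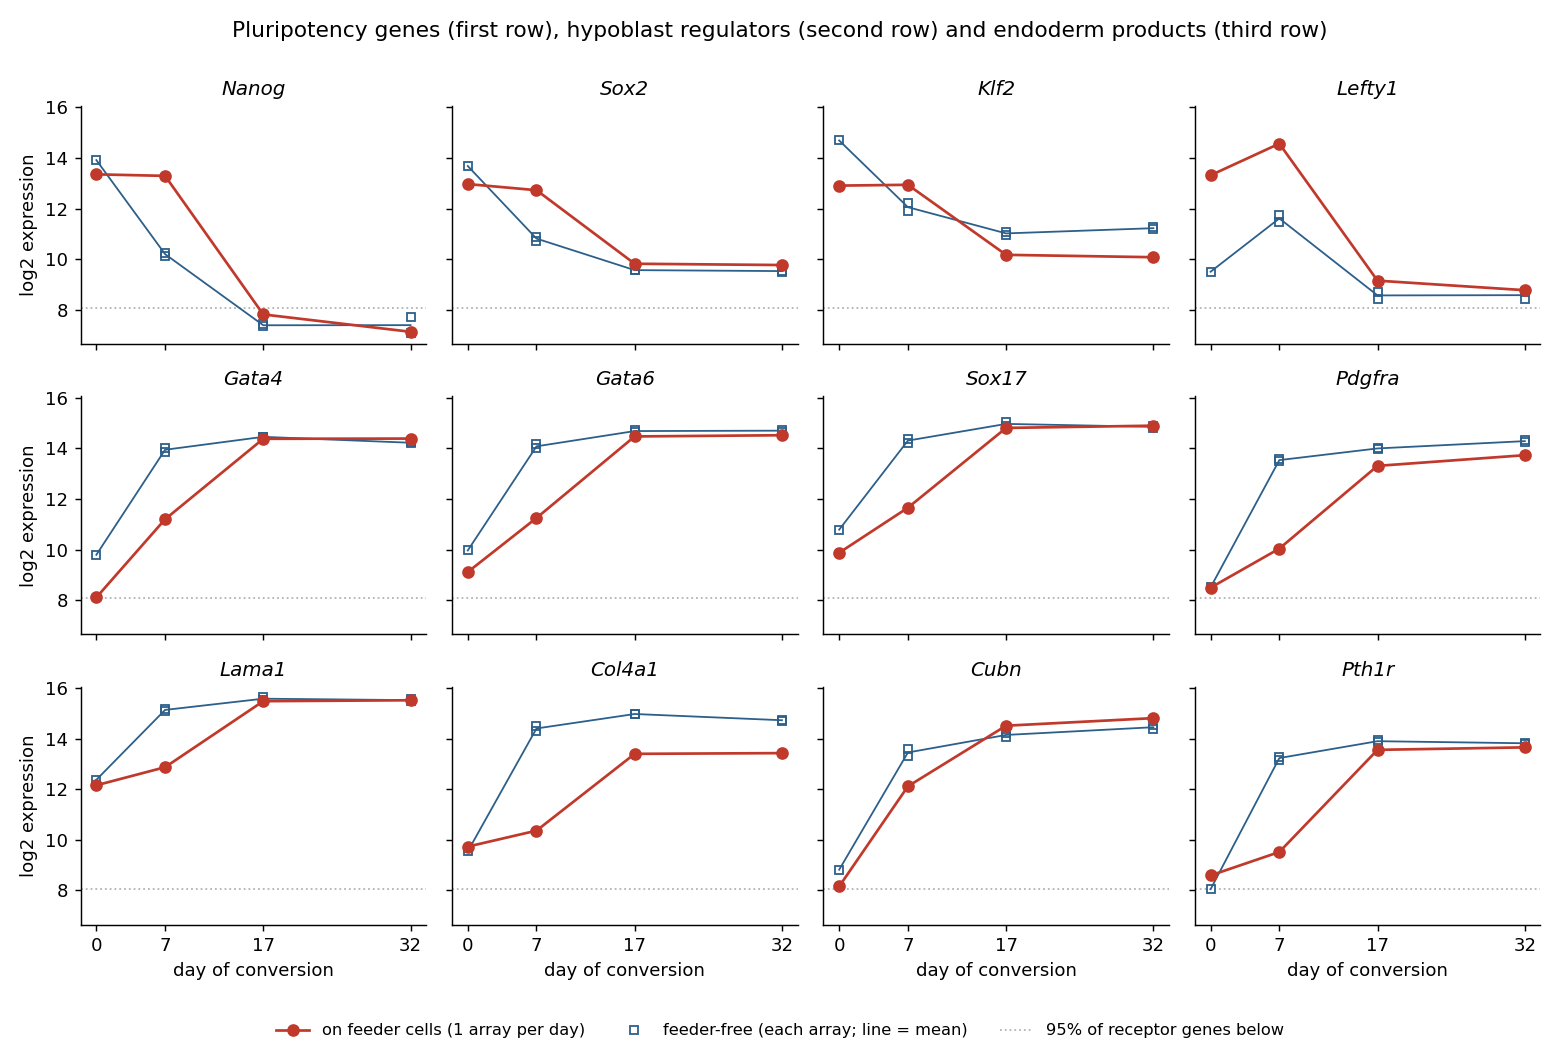
Log2 expression of 12 genes (vertical axis) by day of conversion (horizontal axis). Filled circles are the single feeder arrays, open squares the feeder-free arrays with a line through their means, and the dotted line is the 95th percentile of receptor genes. On feeder cells the 4 genes of the first row drop between days 7 and 17 and the other 8 go on rising after day 7, and in the feeder-free arm Nanog, Sox2 and the genes of the lower rows had made most of their change by day 7.

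Gata4, Gata6 and Sox17, regulators of the hypoblast, had begun to rise by day 7 on feeder cells. Gata6 and Sox17 made the larger part of their gain afterwards, while Gata4 gained about as much before day 7 as after it. Of 12 measured regulators, 8 rose and 2 fell, with a median of 1.43. Prdm1, a zinc finger repressor, was near background on every feeder array (-0.49, adjusted p = 0.0492), and only 1 fall was left under either other scaling, with days 17 and 32 as one group or without either of these arrays. Gata4, a zinc finger factor of the primitive endoderm, had 14.37 and 14.38 in the established state, against 11.20 at day 7, a rise of 3.18 or 9.08-fold (95% interval 2.91 to 3.45, adjusted p = 2.13e-10). Gata6, its relative, had 14.47 and 14.51 against 11.25, a rise of 3.24 (95% interval 2.97 to 3.52). Sox17, an endodermal SOX factor, had 14.80 and 14.89 against 11.65, a rise of 3.20 (95% interval 2.92 to 3.48). In each case days 17 and 32 differed by less than 0.1 while both stood more than 3 above day 7.

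The share of the whole rise reached by day 7 on feeder cells was 49.3% for Gata4, 39.7% for Gata6 and 35.7% for Sox17. Without feeder cells the shares by day 7 were 91.3% for Gata4, 87.1% for Gata6 and 85.4% for Sox17. Foxa2, a forkhead factor of endoderm, had 11.97 and 11.99 against 9.10 at day 7, where it was near its day 0 value of 8.95. Its rise of 2.87 therefore fell almost wholly into the late interval. Hhex, a homeobox gene used as a marker of anterior visceral endoderm, went the other way, with 8.89 and 8.93 in the established state against 10.87 at day 7, a fall of 1.96.

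The receptors and ligands that match the factors of the medium changed unevenly, 7 of 20 rising and 5 falling. Pdgfra, the PDGF receptor of the primitive endoderm, had 13.30 and 13.73 in the established state, against 10.04 at day 7. It rose by 3.48, or 11.2-fold (95% interval 3.22 to 3.74, adjusted p = 8.92e-11). The ligand gene Pdgfb had 8.68 and 8.61 against 11.17 at day 7 and 8.98 at day 0. It was thus high on the day 7 array and fell by 2.52 afterwards.

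Most members of the list of basement membrane genes and their enzymes rose. All 16 measured members of the list were called, 12 higher and 4 lower, with a median of 1.84. Every measured collagen-processing member rose. The 4 falls were all of matrix proteins, so the matrix members taken alone were divided. Lama1, the alpha chain of the laminin of Reichert's membrane, had 15.48 and 15.51 in the established state, against 12.87 at day 7, a rise of 2.63 (adjusted p = 1.22e-09). Col4a1, a chain of collagen IV, had 13.39 and 13.42 against 10.36, a rise of 3.05 or 8.27-fold. P4ha2, a catalytic subunit of the prolyl hydroxylase that modifies collagen chains, rose by 2.68. The laminin chain Lama5 and the proteoglycan Agrn were among the 4 falls, at -1.19 and -0.91. Lama5 and Agrn serve epithelial basement membranes in many adult tissues.

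Genes of endocytic uptake and the lysosome rose in 11 cases of 17 and fell in 2, with a median of 1.01. Cubn encodes cubilin, which with Amn and the large receptor Lrp2 takes up proteins from the maternal fluid in the visceral endoderm. Cubn had 14.51 and 14.81 in the established state, against 12.11 at day 7 and 8.16 at day 0. Its rise of 2.54 followed an early gain that made up 60.9% of the whole, a share that may be understated because day 0 was close to the guide. Amn rose by 1.97, Lrp2 by 1.76 and the adaptor Dab2 by 1.81. Ctsc, a lysosomal cysteine protease, had 13.62 and 13.54 against 9.46, a rise of 4.11 and the largest in this list.

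Of 15 parietal endoderm genes, 8 rose and 3 fell, with a median of 0.47. The rises were 6 with days 17 and 32 as one group or without day 17, and 7 under either other scaling. The falls ranged from 2 to 4, and the median from 0.32 after quantile normalization to 0.60 without day 32. Pth1r, the receptor for parathyroid hormone-related protein and an early marker of parietal differentiation, had 13.55 and 13.65 in the established state, against 9.52 at day 7, a rise of 4.08 or 17.0-fold (adjusted p = 3.97e-11). Tissue factor, F3, rose by 3.30, the retinol transporter gene Stra6 by 3.21 and the granule proteoglycan gene Srgn by 2.98. The anticoagulant inhibitor gene Tfpi and the urokinase gene Plau had negative late changes, -2.22 for Tfpi and -1.37 for Plau, both called.

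Of 19 visceral endoderm genes, 5 rose, 1 fell and 13 did not pass the test, a number of rises close to what the 21.6% of all genes would give. Their median of 0.20 was 0.10 without day 17 or without day 32. The signals Ihh and Dkk1 led the rises, at 2.76 and 2.99. Afp, the alpha-fetoprotein gene, had 8.35 and 8.63 against 8.28 at day 7, and its late change of 0.21 did not pass (adjusted p = 0.343). The apolipoprotein gene Apoa1 had 8.82 and 8.63 against 8.53 (late change 0.20, adjusted p = 0.266). Neither of these serum-protein genes exceeded 8.82 on any feeder array, which is close to the background guide of 8.06. Most other genes of secreted carriers on the list likewise did not pass the test, and the 1 fall was of such a gene. Ttr and Apoe differed from Afp and Apoa1 in call or in level. Ttr, transthyretin, had 8.27 and 8.13 against 7.77 and was called higher (0.43, adjusted p = 0.0421), still close to the guide. The call of Ttr was lost under either other scaling, with days 17 and 32 as one group and without day 17. Apoe, apolipoprotein E, stood at 14.88 and 15.14 against 14.70, far above background, with a change that did not pass (0.31, adjusted p = 0.0702). Treating days 17 and 32 as one group left 3 visceral rises and 0 falls.

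The sequence before the start of the changing genes was searched for short motifs of factors that themselves changed. RefSeq promoters of the rat assembly GRCr8 were matched by gene for 11951 of 14506 genes, and 250 bases before the start were read on both strands. The GATA motif AGATAA stood in 6.42% of 763 matched genes that rose by at least 1, in 5.91% of 575 that fell by at least 1 and in 8.59% of all promoters. The octamer ATGCAAAT, bound by Oct4, stood in 1.57% of the rising, 3.48% of the falling and 1.55% of all promoters. The SOX motif ACAATGG stood in 1.44% of the rising, 1.74% of the falling and 2.09% of all promoters. Each motif was counted on its own, whether or not it overlapped another. A match is a description of letters and not of binding. Sequences of 3 genes follow as examples of promoters with a match, written 5′ to 3′ on the gene's strand up to the base before the start, with the match in capitals. Cubn and Stra6 rose and hold the GATA motif, Stra6 on the opposite strand. Tmsb4x, an actin-binding peptide gene, had 9.65 and 9.25 in the established state, against 11.51 at day 7, fell by 2.06, and holds the octamer on the opposite strand, 46 bases before the start.
Cubn, chr17:81501695-81501944, minus strand: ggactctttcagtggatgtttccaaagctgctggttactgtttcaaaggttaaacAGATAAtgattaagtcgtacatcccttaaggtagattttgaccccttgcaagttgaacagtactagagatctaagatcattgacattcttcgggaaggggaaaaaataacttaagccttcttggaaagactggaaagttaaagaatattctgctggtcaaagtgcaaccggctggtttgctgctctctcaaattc
Stra6, chr8:67444507-67444756, plus strand: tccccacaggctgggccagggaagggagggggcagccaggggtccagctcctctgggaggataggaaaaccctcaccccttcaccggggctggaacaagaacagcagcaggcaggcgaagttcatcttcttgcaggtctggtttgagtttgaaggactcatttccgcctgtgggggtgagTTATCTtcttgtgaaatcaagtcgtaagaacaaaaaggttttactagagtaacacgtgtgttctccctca
Tmsb4x, chrX:30761361-30761610, plus strand: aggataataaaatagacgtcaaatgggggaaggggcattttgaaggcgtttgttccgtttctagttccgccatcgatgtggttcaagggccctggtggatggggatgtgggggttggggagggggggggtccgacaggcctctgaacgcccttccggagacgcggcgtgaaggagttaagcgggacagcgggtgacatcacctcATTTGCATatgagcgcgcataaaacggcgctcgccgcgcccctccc

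**Figure D2:**
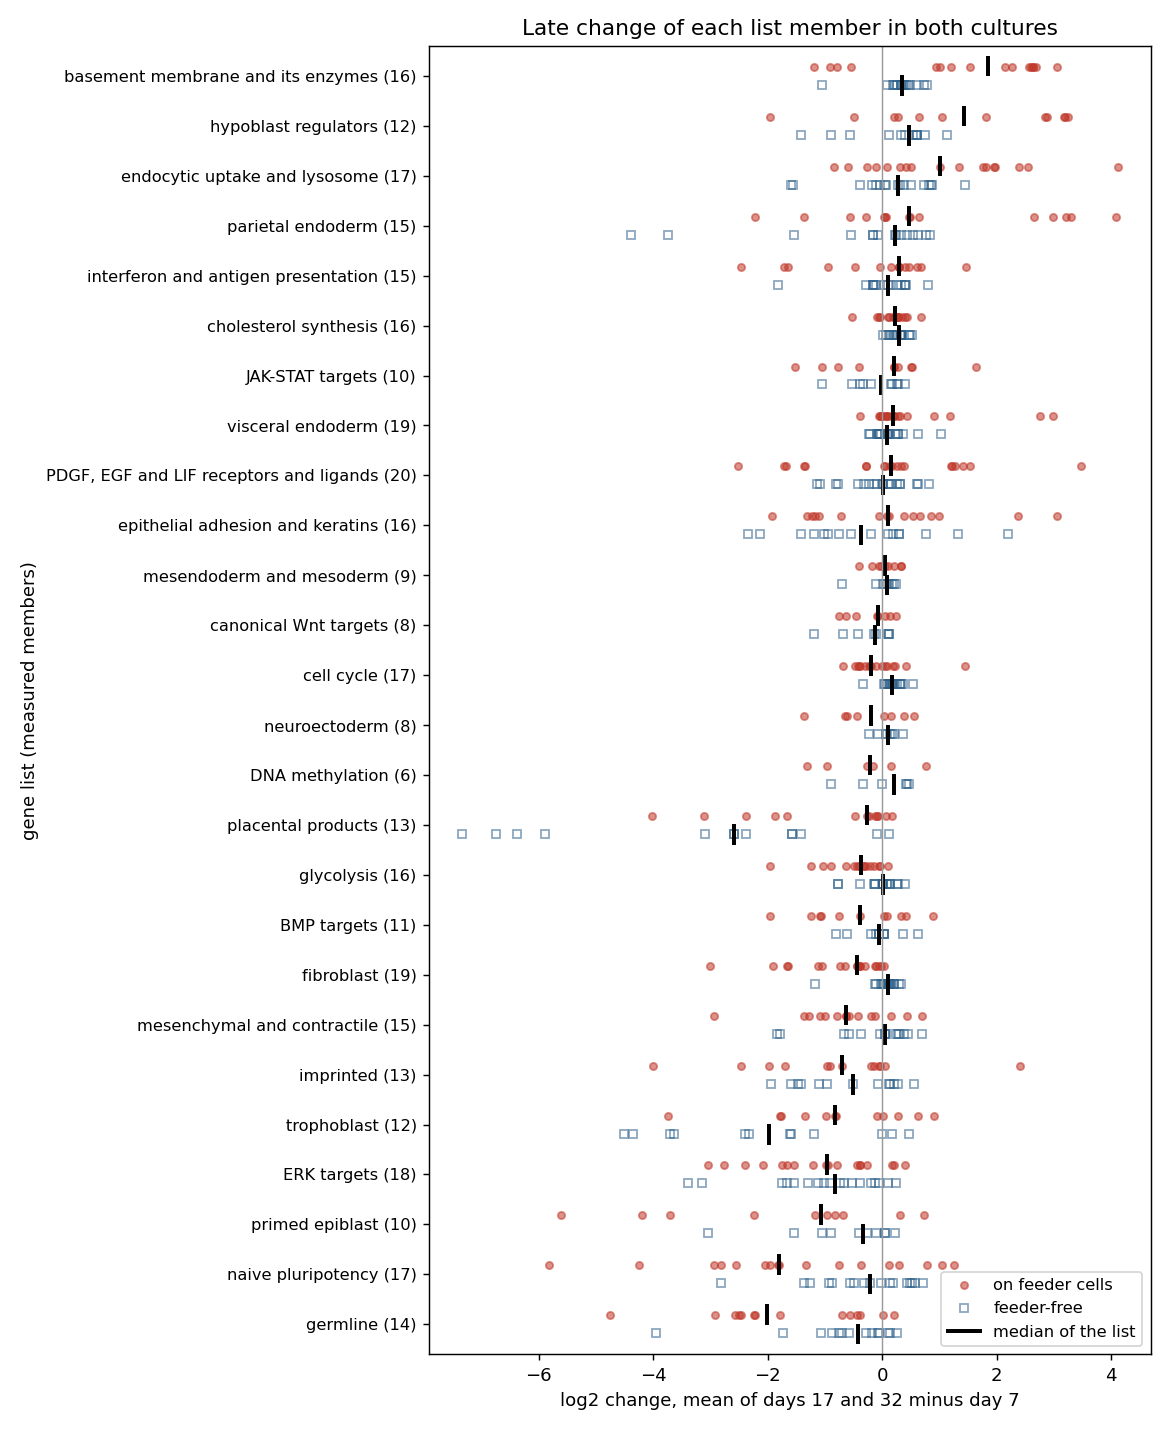
Late change on the log2 scale (horizontal axis) of every measured member of 26 gene lists (vertical axis, number of members in brackets). Filled circles are feeder values, open squares below them feeder-free values, and black bars list medians. On feeder cells, genes of the basement membrane and its enzymes, hypoblast regulators and uptake genes lie mostly to the right. Naive pluripotency and germline genes lie mostly to the left, while feeder-free medians of these lists lie between -0.42 and 0.47.

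Large rises outside the lists included Cmahp, a gene related to the enzyme that hydroxylates sialic acid, with 11.70 and 12.69 in the established state against 7.69 at day 7. Cmahp thus started near background, and its day 32 value was 0.99 above that of day 17. Pxdn, a peroxidase that cross-links collagen IV, had 11.51 and 11.18 against 6.86, a rise of 4.49 out of the range near background. Htra1, a secreted serine protease, rose by 4.28, the semaphorin Sema6d by 4.21, acetylcholinesterase, Ache, by 4.07, and the endothelial lipase gene Lipg by 3.80. All 6 came from the naming rule, which took only rises with both established arrays above day 7. Among the falls was that of Ly6c, a gene of the Ly6 family of surface proteins, with 6.20 and 5.91 against 11.95 at day 7. Fndc3c1 fell by 5.66, the ammonium transport protein gene Rhag by 5.22 and the neurofilament gene Nefl by 4.79. These 4 genes ended near background, so their falls have no order, and set against the guide Ly6c was at least 14.8-fold lower. Lcp1, an actin-bundling protein of blood cells and some other tissues, fell by 4.73. Its day 7 value of 12.86 was above the day 0 value of 11.03.

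The change on feeder cells after day 7 was set beside that without feeder cells. The feeder-free late change was called for 4391 genes (30.3%), 3004 higher (20.7%) and 1387 lower (9.56%), and 60 rises and 356 falls reached 1. The difference between the 2 late changes was called for 3503 genes (24.1%), 1898 with a more positive change on feeder cells (13.1%) and 1605 with a more negative one (11.1%). Centring on the median gene turned this split to 1624 more positive and 2387 more negative. That scaling moved the median difference over all genes to -0.12, against -0.01 as reported.

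Gata4, Pdgfra and Col4a1 were among the genes with a more positive change. Gata4 rose by 3.18 on feeder cells and by 0.39 without them, a difference of 2.79 (adjusted p = 2.28e-08). Pdgfra rose by 3.48 on feeder cells and 0.60 without them, and Col4a1 rose by 3.05 on feeder cells and 0.45 without them. The established level of Gata4 was close in both cultures, averaging 14.38 on feeder cells and 14.33 without them, while Col4a1 averaged 13.41 on feeder cells and 14.85 without them. The day 7 levels of Gata4 lay apart, with Gata4 at 11.20 on feeder cells and at 13.86 and 14.02 in the feeder-free pair. Nanog at day 7 was 13.29 on feeder cells and 10.14 and 10.26 without them, and its established mean was 7.48 on feeder cells and 7.39 without them. For both Gata4 and Nanog the feeder-free pair of day 7 lay between the feeder day 7 array and the established arrays.

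The late change on feeder cells was further set against the feeder-free change over the whole conversion, from day 0 to the established state, which uses none of the same arrays. Across 14506 genes it correlated at 0.766 with the whole feeder-free change. The correlation was 0.536 with the feeder-free change from day 0 to day 7 and 0.553 with the feeder-free late change. These 3 values share the scaling of one table and are descriptions. Over all genes 21.6% were called higher and 14.1% lower in the late change on feeder cells. Of 1077 genes that rose by at least 1 in the whole feeder-free conversion, 965 were called higher in the late change on feeder cells, or 89.6%, and 28 lower. Their median change on feeder cells was 0.23 from day 0 to day 7 and 1.22 afterwards, against 1.35 and 0.41 without feeder cells. Of 932 genes that fell by at least 1, 747 were called lower on feeder cells, or 80.2%, and 23 higher. Their medians on feeder cells were -0.25 up to day 7 and -0.90 afterwards, against -1.33 and -0.28 without feeder cells. The larger part of the median change thus came after day 7 on feeder cells and before day 7 without them. The feeder-free medians use arrays that also chose these genes, among them the single array of day 0.

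**Figure D3:**
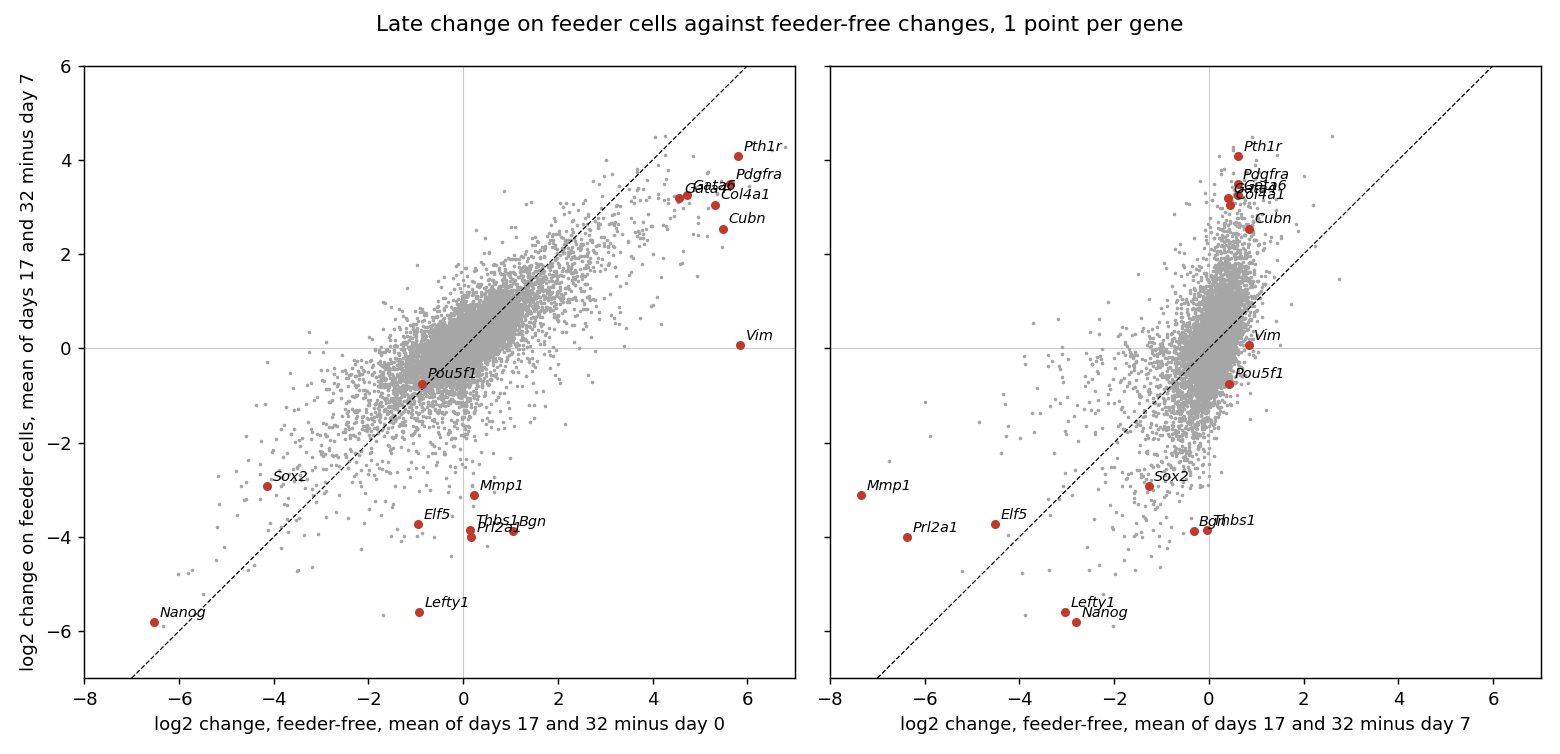
Late change on feeder cells (vertical axis, log2) of 14506 genes against the feeder-free change from day 0 to the established state (left) and from day 7 to the established state (right). The dashed line marks equal changes. The cloud follows the line in the left panel, with Vim, Bgn, Thbs1, Lefty1 and the placental genes off it, and stands steeply in the right panel, where few feeder-free rises exceed 1.

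The late feeder change differed from the whole feeder-free change for 2784 genes (19.2%), 1579 in the positive direction (10.9%) and 1205 in the negative (8.31%). Vim, an intermediate filament gene of mesenchyme and of parietal endoderm, had 14.49 and 14.30 in the established state, against 14.33 at day 7 and 14.57 at day 0 on feeder cells. Its late change was 0.07 (adjusted p = 0.735), with the opposite sign under either other scaling. Fibroblasts express this gene too, and their part in its feeder values was not tested. Without feeder cells it was 14.53 in the established state, against 8.69 at day 0, and these changes differed by -5.78 (adjusted p = 2.13e-10). In the positive direction the leading genes were Cpm, a carboxypeptidase, and Cyp2s1, a cytochrome P450. Cpm differed by 3.86 (adjusted p = 1.52e-08). It was 8.56 at feeder day 0 and 12.40 at feeder-free day 0, and its late change on feeder cells, -0.29, did not pass the test. Cyp2s1 differed by 3.61, with 8.63 at feeder day 0 and 12.03 at feeder-free day 0.

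Most trophoblast and placental genes had a less negative late change on feeder cells than without them, and none stood above both feeder-free arrays at day 7. The trophoblast forms the placenta and is separate from the hypoblast lineage. On the feeder day 7 array, 0 of 12 trophoblast genes and 0 of 13 placental products stood above both feeder-free arrays of that day, against 37.1% of all genes. In the late change 7 trophoblast genes fell and 2 rose, with a median of -0.82, against -1.97 for the same genes without feeder cells. Of the placental products 6 fell and 0 rose, with a median of -0.27 against -2.58, and 8 of 13 were near background on all 3 feeder arrays of days 7, 17 and 32. The difference between the cultures was called in the positive direction for 7 of 12 trophoblast genes and 11 of 13 placental products, against 13.1% of all genes. It was called in the negative direction for 1 trophoblast gene, Cdx2, against 11.1% of all genes. Cdx2, a homeobox factor of trophectoderm and gut, had 8.56 and 8.81 in the established state, against 9.50 at day 7 and 13.13 at day 0, and its late change was -0.81 on feeder cells and 0.17 without them (difference -0.99, adjusted p = 0.000214).

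Elf5, an ETS factor of trophoblast stem cells, had 8.37 and 8.10 in the established state, against 11.97 at day 7 and 8.92 at day 0. It was high on the day 7 array alone and fell by 3.73, a fall that was not called different from the feeder-free one of 4.51 (difference 0.78, adjusted p = 0.0562). Hand1, a helix-loop-helix factor of giant cells, fell by 1.78 on feeder cells and by 3.70 without them. Gata3, a regulator of trophectoderm, was 10.01 at day 7 on feeder cells and 13.11 and 13.21 without them, and fell by 0.98 on feeder cells and by 4.35 without them. Plac1, a placental surface gene, rose by 0.63 on feeder cells, a call that was lost without day 32 (0.36), and fell by 2.33 without feeder cells.

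Among the products, the prolactin-family gene Prl2a1 had 6.71 and 6.55 in the established state, against 10.65 at day 7. The collagenase gene Mmp1 had 6.30 and 6.19 against 9.37 at day 7, where the feeder-free arrays read 13.76 and 13.77. Cyp17a1, a steroid-forming enzyme of the placenta, was 9.69 at day 7 on feeder cells and 13.85 and 13.89 without them. The established means of all 3 genes were near background in both cultures. Plet1, a surface protein of early trophoblast, differed: it remained at 11.02 and 10.58 on feeder cells, against 11.93 at day 7, whereas the feeder-free established mean was 8.46.

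**Figure D4:**
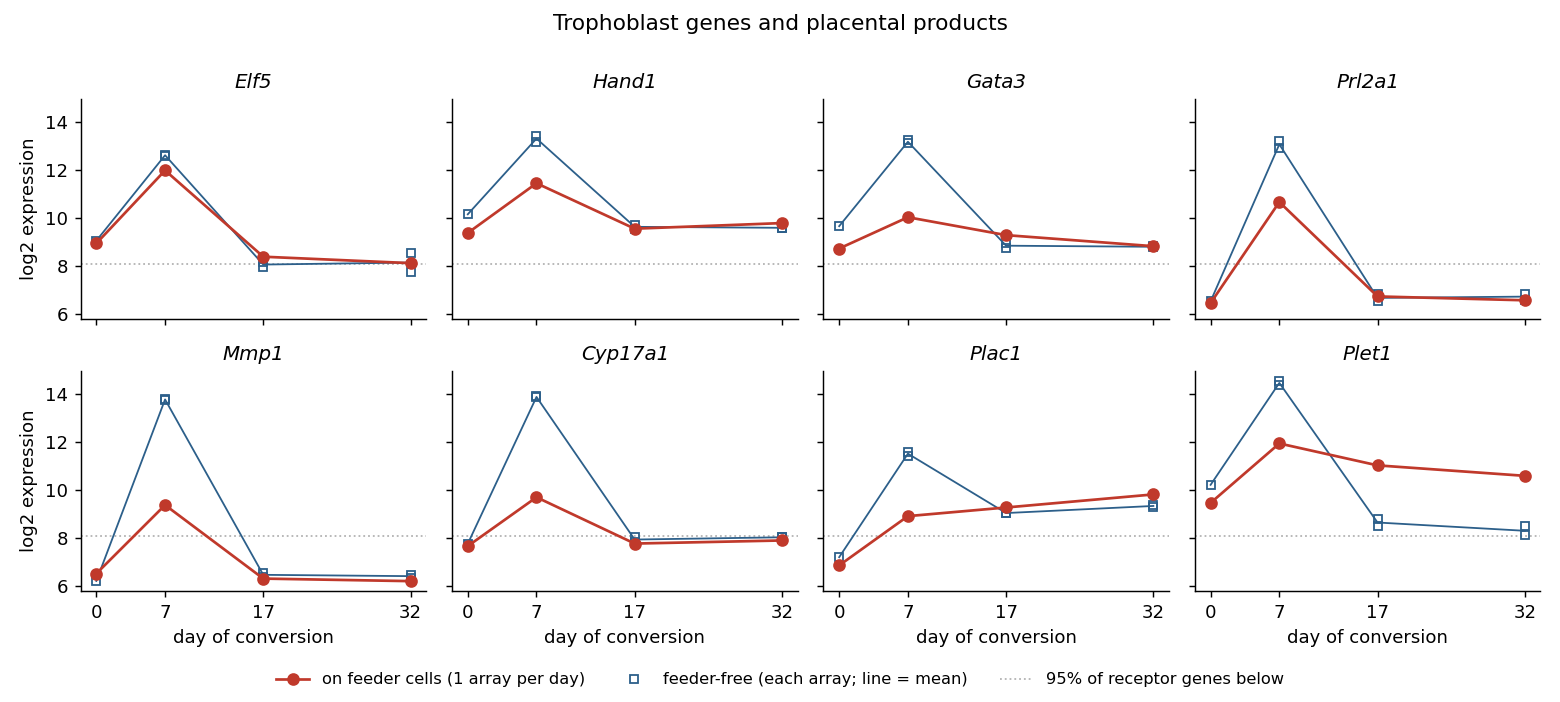
Log2 expression (vertical axis) of 8 trophoblast and placental genes by day of conversion (horizontal axis), drawn as single feeder arrays (filled circles) and feeder-free arrays (open squares, line through the means). The day 7 value is lower on feeder cells than without them for each of the 8 genes, and from day 17 the cultures lie close together except for Plet1.

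Fibroblast genes require a separate account, because the starting layer was made of mouse fibroblasts. The probes are those of a rat array. Of 19 fibroblast genes, 13 fell and 0 rose in the late change, with a median of -0.43, against 0.10 for the same genes without feeder cells. Without day 17 the feeder median was -0.69, and without either established array 11 falls were left. On the day 7 array, 16 of 19 stood above both feeder-free arrays of that day, the share of all genes being 37.1%. The median level of the list on feeder cells was 10.1 at day 0, 9.24 at day 7, 8.88 at day 17 and 8.58 at day 32, and it lay between 8.31 and 8.53 on all 7 feeder-free arrays. On feeder cells 3 of 19 were near background at days 7, 17 and 32 alike. The list median thus came down over the course and by day 32 lay just above the feeder-free range.

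Postn, a matrix protein of fibroblasts, had 6.66 and 6.87 in the established state, against 8.43 at day 7 and 11.79 at day 0. Col1a1, a chain of collagen I, had 10.19 and 10.004 against 11.15 at day 7 and 13.13 at day 0. Both had made most of their decline before day 7. Prrx1, a homeobox gene of limb and other mesenchyme, had 9.42 and 8.58 against 10.90, and Loxl1, an elastic-fibre enzyme, 9.26 and 8.84 against 10.70. Fstl1, a secreted glycoprotein, fell by 3.00. Bgn, the proteoglycan biglycan, had 9.43 and 9.31 against 13.25, and Thbs1, thrombospondin 1, 9.41 and 8.78 against 12.96. On feeder-free arrays Thbs1 had 8.74 at day 7 and 8.71 in the established state (means), so its fall of 3.86 occurred on feeder cells with a feeder-free change of -0.03 (difference -3.83, adjusted p = 2.56e-09).

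In the mesenchymal and contractile list 10 of 15 genes fell and 1 rose. That count was 4 falls when days 17 and 32 formed one group and 6 without day 32. Fn1, fibronectin, fell by 2.93 on feeder cells and by 1.84 without them. Among all genes, 87 were at least 2 higher on feeder cells than without them at day 0. Of these, 57 were called lower and 18 higher in the late change, with a median of -1.01, against -0.03 without feeder cells. Over all genes 14.1% were called lower and 21.6% higher, and the 18 rises were close to that share. The same shares stand behind the next counts. The wider group of 571 genes at least 1 higher on feeder cells at day 0 had 211 called lower and 172 higher, with a median of -0.07. The 495 genes at least 1 lower on feeder cells at day 0 had 168 called lower and 115 higher, with a median of -0.10. Leaving out the fibroblast and mesenchymal lists and all genes at least 1 higher on feeder cells at day 0 left 13917 genes. Of these, 4759 were called in the late change, against 5181 of 14506 as reported. The part of remaining fibroblasts in these falls was not tested.

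**Figure D5:**
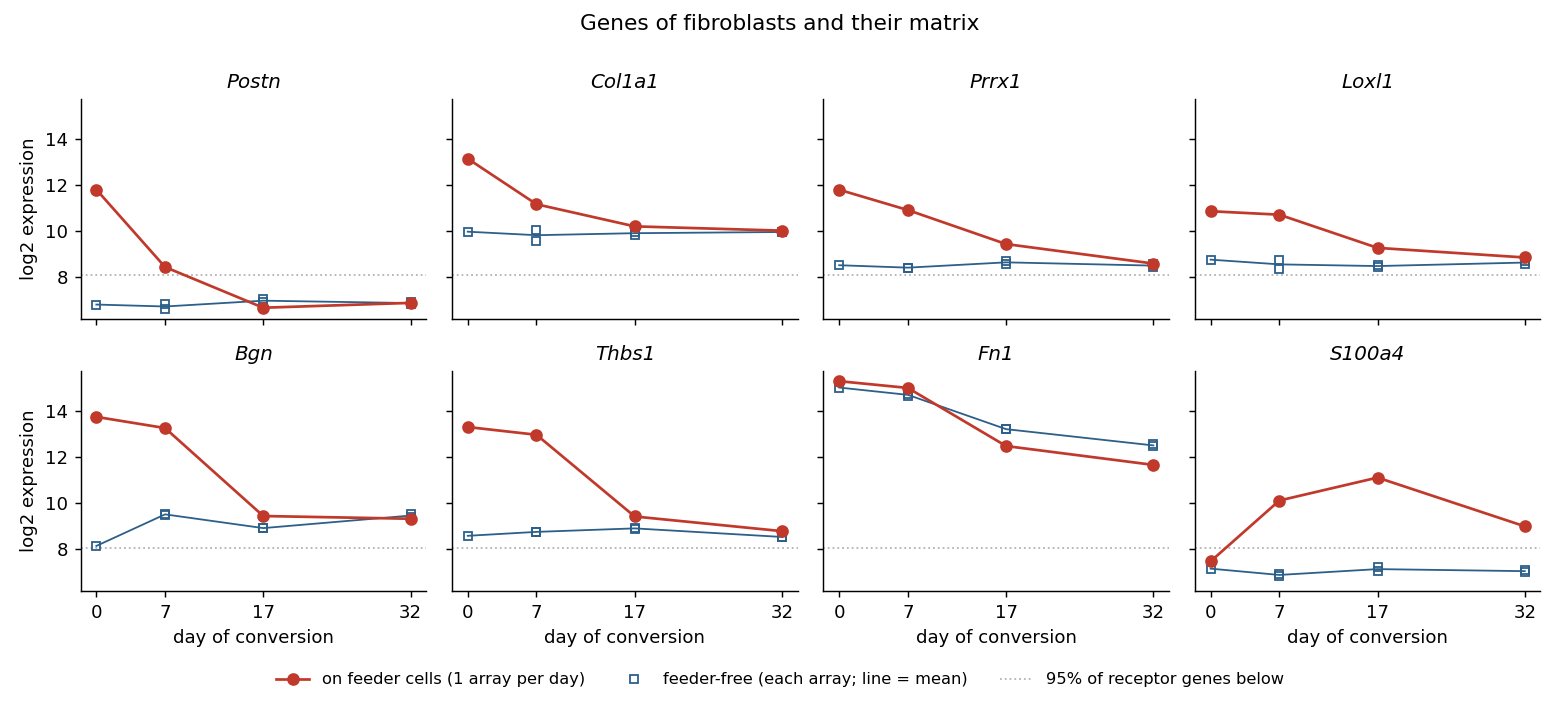
Log2 expression (vertical axis) of 8 genes of fibroblasts and their matrix by day of conversion (horizontal axis). Feeder arrays are filled circles and feeder-free arrays open squares with a line through their means. Postn, Col1a1, Prrx1, Loxl1, Bgn and Thbs1 start higher on feeder cells and approach the feeder-free values by day 32, whereas Fn1 falls in both cultures and S100a4 peaks at day 17 on feeder cells.

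Targets of signalling pathways were examined because the starting media held inhibitors of MEK and GSK3, which the labels do not name for the conversion medium. Of 18 genes induced by ERK signalling, 13 fell and 1 rose on feeder cells, with a median of -0.96, against -0.83 without feeder cells. From day 0 to day 7 the same genes had medians of 0.79 on feeder cells and 1.52 without them. The falls were 9 with days 17 and 32 as one group, 10 without day 32 and 15 without day 17. The rise was lost under either other scaling and without either established array. Dusp6, a phosphatase that limits ERK, had 9.10 and 8.15 in the established state, against 11.67 at day 7, a fall of 3.05. The ETS factor Etv5 fell by 2.77 and the inhibitor Spry4 by 2.07. Of 11 BMP targets 6 fell and 2 rose. Id2, an inhibitor of helix-loop-helix factors, showed the largest of these falls, 1.95. Of 8 canonical Wnt targets 3 fell and 0 rose. JAK-STAT targets were divided, with 3 rises and 4 falls among 10.

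Epithelial genes were divided too, with 7 rises and 6 falls among 16 and a median of 0.10 that became -0.03 after quantile normalization. The adhesion molecule Cdh1, E-cadherin, fell by 1.11 on feeder cells, while its change without them was 0.20 (difference -1.31, adjusted p = 2.82e-05). Krt4, a keratin of stratified epithelium, had 9.84 and 10.76 in the established state, against 7.25 at day 7. Of 13 imprinted genes 7 fell and 1 rose. The rise was that of Phlda2, a growth-restraining gene of placenta and yolk sac, at 2.41, and the leading fall that of Nnat, a neural membrane protein gene, at -4.00. Interferon and antigen presentation genes showed 4 rises and 5 falls among 15, with a median of 0.29. The largest of the falls was that of Mx2, an interferon-induced GTPase, at -2.46. The rises in this list were 2 without day 17, 2 with days 17 and 32 as one group and 6 without day 32.

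The remaining lists are given by their counts. They are to be read against the 21.6% of all genes that rose and the 14.1% that fell, and several rest on single arrays. Markers of mesendoderm and mesoderm showed 1 fall and 0 rises among 9, with 0 falls without day 17 and 2 rises without day 32. Neuroectoderm showed 4 falls and 1 rise among 8, with 3 falls and 0 rises without day 17 and 3 rises without day 32. Cholesterol synthesis had 4 rises and 1 fall among 16, a number of rises close to the share over all genes, and the rises were 2 under either other scaling and 1 without day 32. In glycolysis 8 of 16 genes fell and 0 rose, with 13 falls after quantile normalization and 5 without day 17. In the cell cycle list 5 of 17 fell and 2 rose, with 10 falls after quantile normalization and 2 without day 17. Among 6 genes of DNA methylation 2 fell and 1 rose, with 4 falls after quantile normalization, 3 after centring and 2 rises without day 17.

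The established state itself changed little between its 2 days. Day 32 differed from day 17 for 224 genes (1.54%), 24 being higher at day 32 (0.165%) and 200 lower (1.38%). These changes compare 1 array with 1 array. At an unadjusted p under 0.05 there were 1428. S100a4, a calcium-binding protein of motile and mesenchymal cells, had 8.99 at day 32, against 11.10 at day 17, and 10.11 at day 7. Between days 17 and 32 it fell by 2.12 (adjusted p = 2.58e-05), and the late change of S100a4 was 1.00 without day 32 and -1.12 without day 17. Nfib, a nuclear factor I gene, had 8.06 at day 32 against 9.77 at day 17, the myelin protein gene Pmp22 9.21 against 10.88, and the arginine pathway gene Ass1 9.81 against 11.42. The genes of the hypoblast programme did not pass this test: for Gata6 the difference was 0.05, for Sox17 0.09 and for Pdgfra 0.42 (adjusted p = 0.236).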

How the data were processed

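Total RNA was labelled with biotin and hybridized to 11 arrays. The authors deposited 1 table of log2 expression values, and the submitters' processing notes name RMA as the tool, with neither version nor options. RMA draws low values together, so changes of dim genes are understated. All columns share a median of 8.97. The number of arrays limits the precision, and background per probe was not examined here.

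Of 29214 rows, 15310 had 1 gene symbol in the platform annotation given for this work, 323 several and 13581 none. Where a gene had several rows, as 527 did, the one brightest on average across the series was kept. This left 14506 genes, and no filter on dim genes was applied. Gene identifiers of 15279 rows matched a RefSeq table of GRCr8, and 0 symbols were updated.

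Groups came from the labels. limma 3.58.1 in R 4.3.3 (lmFit, contrasts, eBayes) estimated a mean for each of the 8 groups of culture and day. The feeder-free pairs supplied 3 residual degrees of freedom, to which moderation added 10.3. The labels call these pairs biological replicates but do not state separate cultures, and the spread behind the p values may be technical. Adjusted p values follow Benjamini-Hochberg over 14506 genes, called under 0.05. Intervals are at 95% from the same fit. In simulated data with 200 changed genes among 14506, the fit of the late change recovered 100% of genes changed by 1, 2 or 4, with 12 false calls among 212. The simulation gave every array independent noise of the size that the fit had estimated. It therefore could not test whether single feeder arrays vary like the feeder-free pairs, and far fewer genes changed in it than were called in the data.

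The comparisons, the 26 gene lists (360 distinct measured genes of 408) and the naming rule were chosen with earlier results of these data known. The rule named the 10 genes that rose most and the 10 that fell most in the late change with both established arrays on one side of day 7, up to 4 called members of each list (the 2 largest where none passed), the 5 largest differences each way of the other 3 comparisons, and in any case Nanog, Sox2, Pou5f1, Sox17, Gata6, Gata4 and Pdgfra. It gave a set of which a part is printed. Outside it, Klf4, Klf5, Lin28a, Hhex, Lama5, Agrn, Lrp2, Dab2, Afp, Apoa1, Tfpi, Plau, Gata3, Plac1, Cdx2, Ttr, Apoe, Prdm1, Col1a1, Cdh1 and Tmsb4x were chosen after their values were seen, as were the receptor genes that mark background, 1240 in number.

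Alternatives were centring on the median gene, quantile normalization of all arrays, leaving out the dimmest 25% of genes, the mean of a gene's rows, all rows, weights per array, a minimum change of 1, eBayes with trend and robust, days 17 and 32 as one group, a replicate block, leaving out each array in turn and, added after the data were seen, leaving out genes of feeder cells. Promoter sequences are RefSeq's. Figures were drawn with matplotlib 3.10.9.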

Additional observations from a re-analysis of the deposited data

Results flagged for a closer look

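The late change differed between the cultures for 3503 genes by the test of the difference itself (limma, adjusted p under 0.05), and 86 genes named in the text are among them. The values here are the late change on feeder cells minus that without them, on the log2 scale, and they were drawn out because that difference passed its test.

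Among pluripotency genes the difference was -3.01 for Nanog, -1.67 for Sox2, -1.18 for Pou5f1, -1.88 for Klf2, -3.36 for Gdf3, 0.77 for Klf5 and 0.51 for Lin28a. For genes of the primed epiblast it was -1.83 for Nodal, -2.57 for Lefty1, -3.13 for Lefty2 and -2.15 for Lef1. The germline genes Tex15 and Ddx4 had -0.81 and -1.42. Except for Klf5 and Lin28a, whose rises were larger on feeder cells, and Pou5f1, which fell on feeder cells with a positive change of 0.43 without them, these genes fell more on feeder cells.

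Hypoblast regulators differed by 2.79 for Gata4, 2.63 for Gata6, 2.59 for Sox17, 2.29 for Foxa2 and -1.40 for Hhex. In the PDGF pathway the difference was 2.87 for Pdgfra, -0.63 for Pdgfa, -1.71 for Pdgfb and -1.54 for Pdgfc. Genes of the basement membrane and its enzymes had 2.21 for Lama1, 2.60 for Col4a1, 2.48 for P4ha2 and -1.0 for Agrn. Uptake and lysosomal genes had 1.70 for Cubn, 1.26 for Lrp2, 1.10 for Amn, 1.54 for Dab2 and 2.67 for Ctsc. Endoderm markers had 1.73 for Ihh, 2.71 for Dkk1, 3.46 for Pth1r, 2.74 for Srgn, 3.38 for F3, 2.76 for Stra6, 2.16 for Tfpi and 2.36 for Plau. For Tfpi and Plau the positive value means a smaller fall on feeder cells.

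Trophoblast and placental genes differed by 1.92 for Hand1, 3.38 for Gata3, 2.96 for Plac1, 2.36 for Prl2a1, 4.22 for Mmp1, 4.03 for Cyp17a1 and 4.86 for Plet1, and by -0.99 for Cdx2, the one value among these in the negative direction. The fibroblast and matrix genes drawn out here had -1.86 for Postn, -2.06 for Prrx1, -1.65 for Loxl1, -1.82 for Fstl1 and -1.17 for Col1a1. For Bgn, Thbs1, Fn1 and Vim the values were -3.55, -3.83, -1.09 and -0.77. Over the whole fibroblast list the difference was called negative for 13 of 19 genes and positive for 0. In the mesenchymal and contractile list it was negative for 7 of 15 and positive for 1. Of all genes, 11.1% were called negative and 13.1% positive.

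Of the genes with the largest changes, the difference was -3.86 for Ly6c, -1.77 for Fndc3c1, -2.97 for Rhag, -2.81 for Nefl, 1.90 for Cmahp, 3.58 for Pxdn, 3.77 for Htra1, 3.70 for Sema6d, 3.87 for Ache and 3.49 for Lipg. Signalling targets had -1.75 for Dusp6, -1.33 for Spry4, -1.02 for Etv5, -1.34 for Id2, 1.23 for Cish and -1.0 for Socs1. The remaining genes had 2.13 for Phlda2, -2.58 for Nnat, -2.34 for Mx2, -1.51 for Isg15, 0.85 for Krt4, -1.31 for Cdh1, 1.03 for Cldn4, 1.05 for Tspan8, -1.32 for Nfib, 0.86 for Cpm, -0.60 for Tmsb4x, -1.18 for Pfkm, 1.77 for Ccne2 and -0.99 for Uhrf1.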

How the results depend on the processing

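The count of the late change ranged from 4584 to 5458 when each array was left out in turn, and was 5716 after quantile normalization and 4228 with days 17 and 32 as one group. With a change of at least 1 also required, the counts were 1662 for the late change, 1242 for the difference between cultures, 1000 for the late feeder change minus the whole feeder-free change and 65 for day 32 minus day 17. Days 17 and 32 as one group gave 2305 for the difference between cultures and 1588 for the late feeder change minus the whole feeder-free change. Day 32 minus day 17 had 121 genes after quantile normalization, 104 after centring, 429 without the dimmest 25%, 31 over all rows and 412 with trend and robust. It ranged from 167 to 374 with 1 array left out, the highest count being without either feeder-free array of day 17. The cause was not tested. Without feeder day 7 no late change could be formed, and without either established array no difference between them.

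Of 101 genes printed, 14 changed call or direction of the late change under an alternative. The change of Vim was -0.08 after quantile normalization, -0.02 after centring and -0.03 without feeder day 17. That of S100a4 was 1.00 without feeder day 32 and -1.12 without feeder day 17, and that of Vim was 0.16 without feeder day 32. Replicate numbers do not pair the samples: replicate differences correlated at 0.034 between days 7 and 17, -0.195 between days 7 and 32 and -0.099 between days 17 and 32. With the replicate block the counts were 5062 for the late change, 3436 for the difference between cultures, 2709 against the whole feeder-free change and 325 for day 32 minus day 17.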

Other observations

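Several further members of the lists changed after day 7 on feeder cells. Pdgfa, a ligand of the PDGF receptor, had 10.78 and 10.14 in the established state, against 12.17 at day 7, and fell by 1.71. Pdgfc, another such ligand, had 8.39 and 8.06 against 9.90 and fell by 1.68. The feeder-free day 7 mean was 10.5 for Pdgfa and 8.15 for Pdgfc. Among genes induced by cytokines, Cish, a feedback inhibitor of STAT signalling, rose by 1.64, whereas Socs1, a related inhibitor, fell by 1.53. Cldn4, a tight junction claudin, had 12.44 and 11.86 against 13.46 at day 7, and remained above the feeder-free established mean of 9.53. Tspan8, a tetraspanin of epithelia, rose by 2.37, with day 17 at 10.02 and day 32 at 9.06.

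Isg15, a ubiquitin-like protein induced by interferon, had 10.30 and 10.25 in the established state, against 11.92 at day 7 and 8.13 at day 0, so that it was highest on the day 7 array. B2m, the light chain of class I antigen-presenting molecules, had 13.10 and 12.75 against 14.63 at day 7, and 12.20 at day 0. Its fall of 1.71 was not called different from the feeder-free one of 1.82 (adjusted p = 0.698). Uhrf1, which guides maintenance of DNA methylation, fell by 1.32, and Ddx4, a germ cell RNA helicase, fell by 2.49 to the range near background. In glycolysis, the phosphofructokinase gene Pfkm had 9.90 and 9.74 against 11.78 at day 7, and the glucose transporter gene Slc2a1 had 14.31 and 14.34 against 15.35. Ccne2, a cyclin of the entry into S phase, rose by 1.45 on feeder cells, where its day 7 value of 9.58 equalled that of day 0, at 9.57, within the spread of the fit.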
